A study of Mus musculus with 4 samples.

Results

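The genes described here are 9 genes of arginine and itaconate metabolism: Slc7a2, Arg1, Arg2, Nos2, Ass1, Asl, Gatm, Odc1 and Acod1. They were chosen by name, as the rows of the gene tables whose symbol equals one of these names, and all 9 were found among the 31253 genes of the tables, of which 20525 had a molecule in an analysed cell. Their messenger RNA was measured by single-cell RNA sequencing in live CD45+ cells, that is leukocytes, sorted from brain hemispheres that carried a CT2a tumor. CT2a is a mouse glioma line of C57BL/6 origin, and it was placed in the brain 14 days before the cells were taken. The groups were WT mice and CaMKK2 KO mice, both on the C57Bl/6 strain background, with 4 mice in each, and the labels name no therapy for either group. CaMKK2 is a kinase activated by calcium and calmodulin. The deletion was germline, so it covered every cell type of the host, while the tumor cells came from the implanted line. Cells of the 4 mice of a genotype were tagged with hashtag antibodies, pooled and loaded in 1 droplet channel, so genotype and channel cannot be told apart in any comparison below. Age was not given per mouse in the labels.

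Arginine enters myeloid cells through cationic amino acid transporters such as Slc7a2 and is then split by competing enzymes. The arginases, Arg1 in the cytosol and Arg2 in mitochondria, release urea and ornithine, which ornithine decarboxylase, Odc1, turns into the polyamine putrescine. The inducible nitric oxide synthase, Nos2, makes nitric oxide and citrulline, and Ass1 and Asl rebuild arginine from that citrulline. Gatm transfers the amidino group of arginine to glycine, the committed step of creatine synthesis. Acod1, also called Irg1, decarboxylates cis-aconitate of the citrate cycle to itaconate, and like Nos2 it is a classical product of inflammatory activation in macrophages. Arg1 and Nos2 are often used as opposite markers of macrophage activation.

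On the GRCm38 build, annotated by GENCODE M21, Slc7a2 (ENSMUSG00000031596) lies at chr8:40862396-40922308, Arg1 (ENSMUSG00000019987) at chr10:24915221-24927484, Arg2 (ENSMUSG00000021125) at chr12:79130777-79156301 and Nos2 (ENSMUSG00000020826) at chr11:78920787-78960254. Ass1 (ENSMUSG00000076441) lies at chr2:31470207-31520672, Asl (ENSMUSG00000025533) at chr5:130011258-130029247 and Gatm (ENSMUSG00000027199) at chr2:122594467-122611303. Odc1 (ENSMUSG00000011179) lies at chr12:17544794-17551505 and Acod1 (ENSMUSG00000022126) at chr14:103046977-103056573. Arg1, Asl and Gatm are on the minus strand and the other 6 on the plus strand.

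RefSeq promoter sequences of GRCm38.p6 were at hand for 4 of the 9 genes, and 3 of these are shown because their levels carry the comparisons below: Gatm, which differed most clearly between the genotypes, and Ass1 and Acod1, which were detected in the same macrophages. Each is the 250 bases before the start in the promoter set, read 5′ to 3′ on the strand of the gene, with matches to the motifs searched in capitals. For all 3 that start lies inside the gene span given above, so part of each stretch does too.
Gatm, chr2:122611278-122611527, minus strand: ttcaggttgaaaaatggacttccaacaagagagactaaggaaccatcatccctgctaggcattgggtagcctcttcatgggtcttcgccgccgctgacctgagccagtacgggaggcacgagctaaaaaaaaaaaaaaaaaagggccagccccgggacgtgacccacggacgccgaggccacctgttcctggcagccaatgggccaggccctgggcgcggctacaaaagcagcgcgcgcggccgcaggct
Ass1, chr2:31470020-31470269, plus strand: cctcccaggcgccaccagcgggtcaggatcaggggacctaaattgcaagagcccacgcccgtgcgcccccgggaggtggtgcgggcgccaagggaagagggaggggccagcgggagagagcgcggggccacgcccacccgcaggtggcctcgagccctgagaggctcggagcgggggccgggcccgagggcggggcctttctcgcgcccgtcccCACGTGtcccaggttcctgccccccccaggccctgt
Acod1, chr14:103046762-103047011, plus strand: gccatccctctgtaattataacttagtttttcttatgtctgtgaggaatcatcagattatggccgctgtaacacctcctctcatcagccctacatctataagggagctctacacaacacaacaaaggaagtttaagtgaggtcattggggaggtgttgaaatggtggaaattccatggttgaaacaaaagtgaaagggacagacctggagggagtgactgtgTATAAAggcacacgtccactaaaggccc
The motifs, sought on both strands, were TTCNNNGAA of gamma-activated sites, the interferon-stimulated response element (GAAA and, after any 2 bases, another GAAA), TGACGTCA of cyclic AMP response elements, the E-box CACGTG and the TATA box TATAAA. They were present in 7.02%, 2.98%, 1.55%, 6.02% and 12.4% of all 32851 promoters of the same length. The Ass1 promoter held the E-box at positions -36 to -31 from the start, and the Acod1 promoter held the TATA box at -28 to -23. None of the 5 motifs was found in these 250 bases of Gatm or of Odc1, the fourth gene with a sequence. Base composition differed, with 59.2% G and C in Gatm, 75.6% in Ass1 and 44.4% in Acod1.

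After removal of barcodes with hashtags of several mice, scored doublets and outlying cells, 5050 WT and 5635 CaMKK2 KO cells remained, 1006 to 1665 a mouse, with 11886048 to 20346223 unique molecular identifiers (UMIs) a mouse. The median was 12597 UMIs a cell in WT and 11457 in CaMKK2 KO. The libraries shared 42 barcodes, 8 of them among analysed cells. Cells were assigned to immune classes by the number of panel markers with a UMI, and none of the 9 genes was a marker. Macrophage-gated cells had on average 8.97 of 10 macrophage markers but also 3.44 of 10 microglia markers and 3.60 of 8 classical monocyte markers, so that class grades into its neighbors. Microglia-gated cells had 8.91 of 10 microglia markers and also 9.04 of 10 macrophage markers. Classical monocyte-gated cells had 5.09 of 10 macrophage markers, and NK cell-gated cells had 5.44 of 8 NK cell markers. Camkk2 itself was at 27.7 to 39.0 CPM (UMIs of a gene per 1000000 UMIs) in WT and 13.3 to 22.6 CPM in CaMKK2 KO mice over all cells, lower in the mice labelled CaMKK2 KO but not at 0. All levels below are CPM of the summed UMIs of a class in a mouse, and levels are compared between classes and mice but not between genes.

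Arg1, Nos2 and Slc7a2 had their highest means in macrophage-gated cells among the 12 classes with at least 10 cells in at least 6 mice. Arg1 was at 863 ± 723 CPM there (SD, n = 8 mice of both genotypes, as in all comparisons of classes) and next in classical monocyte-gated cells at 531 ± 403 CPM (n = 8). Microglia-gated cells followed at 142 ± 128 CPM (n = 8). In WT mice alone the Arg1 mean was higher in classical monocytes, at 569 ± 550 CPM, than in macrophages, at 544 ± 296 CPM. The monocyte value of WT mouse 1 was 1383 CPM, from 22 cells, and the other WT mice were at 193 to 406 CPM. On the log2 scale the WT difference, macrophages minus classical monocytes, was 0.13 ± 0.84. In CaMKK2 KO mice the Arg1 mean was 493 ± 269 CPM in classical monocytes and 1183 ± 927 CPM in macrophages. Macrophages and classical monocytes did not differ beyond the spread between mice, with macrophages higher in 5 of 8 mice (two-sided exact sign-flip permutation test over mice, p = 0.133, adjusted p = 0.487). Classical monocytes were above microglia in 8 of 8 mice, by 1.91 on the log2 scale (exact permutation p = 0.0078, the smallest 8 mice allow, adjusted p = 0.0859). Every class after microglia had a mean of 21 CPM or less. NK cells, taken here as cells that lack arginase 1, held a median of 0.632% of the macrophage level. Whether that level is RNA free in the droplets was not tested.

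Nos2 had the same leading classes, with 32.1 ± 46.2 CPM in macrophage-gated, 25.7 ± 26.8 in classical monocyte-gated and 9.85 ± 18.3 in microglia-gated cells (SD, n = 8). In WT mice alone its mean was higher in classical monocytes, at 11.7 ± 7.98 CPM, than in macrophages, at 9.55 ± 5.11 CPM. The highest of these monocyte values, 22.2 CPM, came from the 22 cells of WT mouse 1, with the other WT mice at 4.09 to 13.1 CPM. In CaMKK2 KO mice the Nos2 mean was 39.7 ± 32.9 CPM in classical monocytes and 54.6 ± 60.0 CPM in macrophages. Slc7a2, the transporter, was at 16.2 ± 13.6 CPM in macrophage-gated and 11.9 ± 7.48 in classical monocyte-gated cells, and no UMI of it was found in NK, B or type 2 dendritic cell-gated cells of any of the mice. Neighboring classes in either order did not differ after adjustment over the 11 neighbor pairs of a gene (exact sign-flip permutation tests, smallest adjusted p = 0.258 for Nos2 and 0.516 for Slc7a2). Arg2 had a different order, with classical monocytes at 55.7 ± 42 CPM (n = 8), mature dendritic cells at 44.4 ± 30.8 (n = 7) and macrophages at 33.3 ± 35.8 (n = 8), of which no pair of neighbors differed beyond the spread between mice (adjusted p = 0.559 for each, exact sign-flip permutation test).

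Ass1 and Gatm were spread over more classes, and Odc1 was highest in CD4 T cells. Ass1 was at 349 ± 261 CPM in classical monocyte-gated, 297 ± 231 in type 2 dendritic cell-gated and 295 ± 80.8 in mature dendritic cell-gated cells, then 246 ± 214 in macrophages and 227 ± 54.3 in regulatory T cells. NK cells had the lowest Ass1, 4.41 ± 2.84 CPM (n = 8), below CD8 T cells at 17 ± 7.73 in 8 of 8 mice (exact sign-flip permutation p = 0.0078, adjusted p = 0.0859). Gatm was highest in microglia at 756 ± 511 CPM and macrophages at 714 ± 450 (n = 8), which did not differ (adjusted p = 0.938, exact permutation test). Macrophages were above classical monocytes in 8 of 8 mice, by 2.16 on the log2 scale (exact permutation p = 0.0078, adjusted p = 0.0573). That mean covers 3.31 ± 0.85 in WT and 1.02 ± 0.51 in CaMKK2 KO mice. Type 1 dendritic cells carried Gatm at 282 ± 58.1 CPM (n = 7), above type 2 dendritic cells in 7 of 7 mice (exact permutation p = 0.0156, adjusted p = 0.0573).

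Odc1, the entry enzyme of polyamine synthesis, was at 908 ± 155 CPM in regulatory T cell-gated cells (n = 7) and at 442 ± 146 in other CD4 T cells (n = 6). Regulatory T cells were higher in 6 of the 6 mice with both classes (exact sign-flip permutation p = 0.0312, the smallest 6 mice allow, adjusted p = 0.0859). CD8 T cells followed at 153 ± 30.7 CPM, NK cells at 125 ± 31.4 and macrophages, ninth in the order, at 55.8 ± 9.94 (n = 8). Asl, the second enzyme of arginine recycling, varied least, between 15.1 CPM in B cells and 44.8 in regulatory T cells in 11 classes, with mature dendritic cells apart at 112 ± 36.9 CPM and above regulatory T cells in 7 of 7 mice (exact permutation p = 0.0156, adjusted p = 0.172). Acod1 was at 150 ± 116 CPM in classical monocytes (n = 8), 136 ± 149 in non-classical monocytes (n = 7) and 102 ± 86.6 in macrophages (n = 8). Microglia had 29.3 ± 36.7 CPM of Acod1, and no neighboring classes differed after adjustment (smallest adjusted p = 0.258, exact permutation test).

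**Figure D1:**
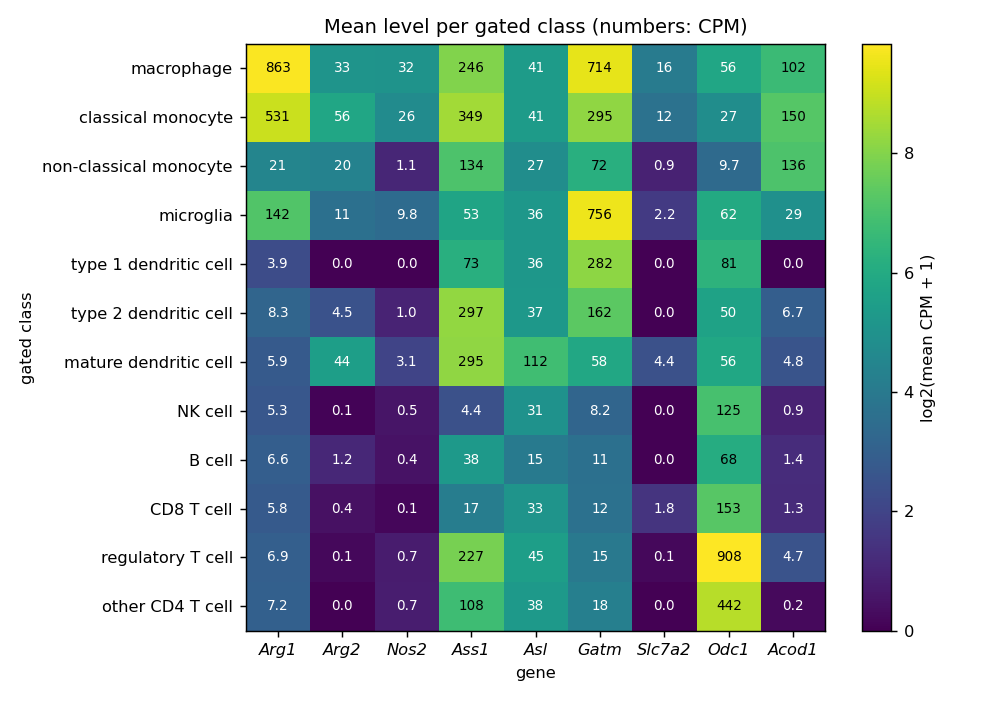
Mean level over mice of each of the 9 genes (columns) in 12 marker-gated classes (rows), with the mean CPM printed in each square and color giving log2(mean CPM + 1). Over mice of both genotypes, Arg1 and Nos2 have their highest means in macrophages and Acod1 in classical monocytes. In WT mice alone the Arg1 and Nos2 means are higher in classical monocytes, where WT mouse 1, with 22 such cells, has the highest WT value of both genes. Gatm has its highest means in microglia and macrophages, and Odc1 in regulatory T cells. For none of these genes did neighboring classes in the order differ after adjustment.

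Some classes were too small for levels per mouse and were summed. In 32 neutrophil-gated cells of all mice, Arg2 was at 479.8 CPM (95% exact Poisson interval 347.2 to 646.2, counting error only) with a UMI in 18 cells, and Acod1 was at 379.3 CPM (262.7 to 530.1), or 235.3 CPM without WT mouse 2. Arg1 and Nos2 had 0 UMIs there, where 3 UMIs would be 33.5 CPM and the exact Poisson interval reaches 41.2 CPM. In 21 mast cell or basophil-gated cells Acod1 was at 931.4 CPM (787.8 to 1094), from 149 UMIs in 11 cells. Of these UMIs 104 came from CaMKK2 KO mouse 1, without which the level was 358.0 CPM. Plasmacytoid dendritic cells, 82 in all, had 75.1 CPM of Ass1 and 67.1 CPM of Odc1 but 0 UMIs of Nos2. These sums over mice were not compared by a test.

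The genotypes were compared on counts summed per mouse in the 4 classes with at least 20 cells in every mouse. In macrophage-gated cells, 314 to 571 a mouse, Gatm and Arg2 were higher in CaMKK2 KO mice, and the other 7 genes did not pass the test. Gatm was at 306, 322, 366 and 302 CPM in WT mice 1 to 4 and at 1467, 1039, 1052 and 858 CPM in CaMKK2 KO mice 1 to 4. The genotypes did not overlap, and the lowest CaMKK2 KO mouse stood far above the highest WT mouse. Gatm rose 3.41-fold (log2 fold change 1.77, SE 0.16, edgeR quasi-likelihood test adjusted over all genes tested, adjusted p = 0.00067). Arg2, the mitochondrial arginase, was at 6.79, 7.56, 7.94 and 9.68 CPM in WT mice and at 25.8, 103, 33.9 and 71.3 CPM in CaMKK2 KO mice. The WT mice lay close together, and all CaMKK2 KO mice were above them. Arg2 rose 7.25-fold (log2 fold change 2.86, SE 0.43, edgeR adjusted p = 0.0110).

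All 9 genes passed the filter of 200 UMIs in macrophage-gated cells, and 2 of them were called higher and none lower. Of all 9478 genes tested, 2.33% were called, 0.971% as higher in CaMKK2 KO. Without overlap between the genotypes were 4 of the 9 (Gatm, Arg2 and Acod1 higher, Odc1 lower), against 13.1% of all genes. The median log2 fold change of the 9 genes was 1.77, against -0.08 over all genes tested. Because the 9 genes were chosen with earlier results of these data known, such shares and medians describe them and do not test them. The same holds in the other classes below. Calls over all genes were split 92 higher to 129 lower, and 109 to 86 with TMM scaling or 342 to 237 in DESeq2.

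Arg1 varied widely within each genotype. Its levels were 746, 812, 448 and 169 CPM in WT mice 1 to 4 and 1505, 2336, 613 and 279 CPM in CaMKK2 KO mice 1 to 4. WT mouse 4 and CaMKK2 KO mouse 4 were the lowest of their genotypes, and the ranges overlapped. The log2 fold change was 1.12 (SE 0.65, edgeR adjusted p = 0.349). Nos2 was at 11.8, 13.8, 10.5 and 2.16 CPM in WT and at 8.89, 141, 18.4 and 50.5 CPM in CaMKK2 KO mice. CaMKK2 KO mouse 2 alone was above 100 CPM and CaMKK2 KO mouse 1 lay within the WT range. The difference did not pass the test (log2 fold change 2.53, SE 0.84, edgeR adjusted p = 0.142). With CaMKK2 KO mouse 2 left out, Nos2 had a log2 fold change of 1.40 (edgeR adjusted p = 0.365).

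Ass1 was at 13.1, 136, 190 and 90.2 CPM in WT and 238, 506, 162 and 635 CPM in CaMKK2 KO mice, and Acod1 was at 4.23, 36.7, 78.6 and 51.0 CPM in WT and 92.0, 228, 81.6 and 241 CPM in CaMKK2 KO mice. Both genes were lowest in WT mouse 1 and highest in CaMKK2 KO mice 4 and 2, and the genotypes overlapped for Ass1, where WT mouse 3 was above CaMKK2 KO mouse 3, but not for Acod1. Neither passed the test, with a log2 fold change of 1.84 for Ass1 (SE 0.69, edgeR adjusted p = 0.179) and 1.91 for Acod1 (SE 0.68, edgeR adjusted p = 0.165). Slc7a2 was at 6.37 to 12.9 CPM in WT and at 12.6 to 48.7 CPM in CaMKK2 KO mice, and CaMKK2 KO mouse 2 held the highest value (log2 fold change 1.35, SE 0.44, edgeR adjusted p = 0.139). Without that mouse the log2 fold change was 0.69 (edgeR adjusted p = 0.249), and with all mice DESeq2 gave Slc7a2 an adjusted p of 0.0253. Odc1 lay at 57.0 to 68.3 CPM in WT and 37.1 to 56.8 CPM in CaMKK2 KO mice, without overlap but with little distance between the groups (log2 fold change -0.37, SE 0.13, edgeR adjusted p = 0.161). Asl was nearly level, at 38.9 to 45.5 CPM in WT and 40.2 to 41.4 CPM in CaMKK2 KO mice, and its log2 fold change of -0.00 (SE 0.08, edgeR adjusted p = 0.988) changed sign with TMM scaling, to 0.08.

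**Figure D2:**
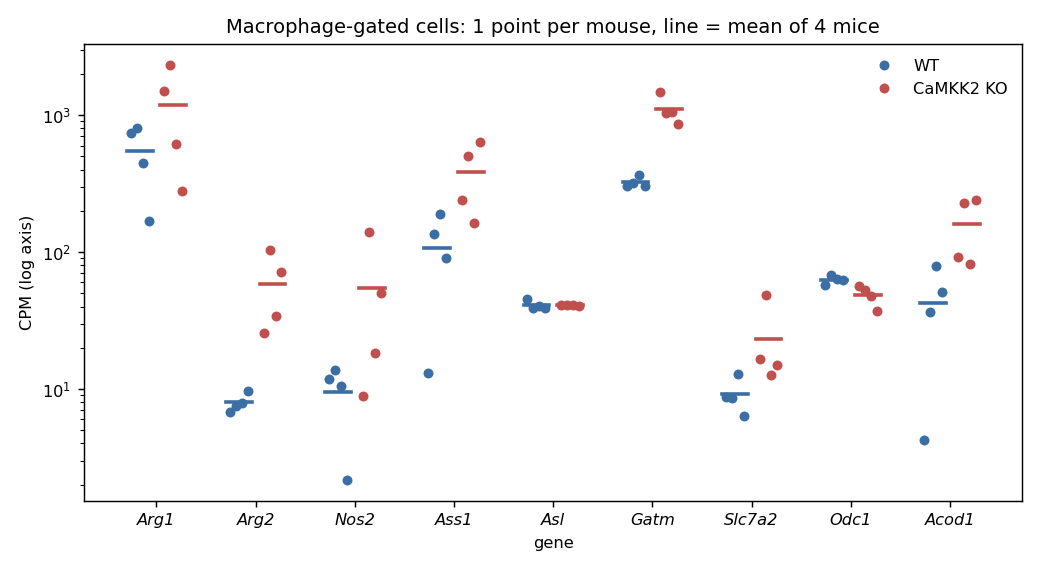
CPM of each of the 9 genes in macrophage-gated cells of each mouse (points) on a log axis, with WT in blue, CaMKK2 KO in red and a line at the mean of the 4 mice. The genotypes are apart for Gatm and Arg2, which passed the test. They also do not overlap for Acod1 and for Odc1, which is lower in CaMKK2 KO, but neither of these passed it. Arg1 ranges from 169 to 812 CPM in WT and from 279 to 2336 CPM in CaMKK2 KO mice.

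Some marker panels of other cells differed between the genotypes inside this gate. The summed level of the 10 microglia markers was 1454 to 1831 CPM in WT and 643 to 1313 CPM in CaMKK2 KO macrophage-gated cells. That of the 8 classical monocyte markers overlapped, at 1877 to 4823 and 3137 to 8193 CPM. The 8 T cell markers summed to 14.8 to 16.6 CPM in WT and 25.7 to 31.3 CPM in CaMKK2 KO mice, and those of tumor, glia or neurons to 34.8 to 42 and 30.2 to 34.5 CPM. Their part in the differences was not tested. The share of macrophage-gated cells among all cells of a mouse was 38.6 ± 6.38% in WT and 31.0 ± 4.89% in CaMKK2 KO (n = 4 each, exact permutation p = 0.143). Camkk2 in macrophage-gated cells fell from 30.7 ± 7.14 CPM in WT to 15.1 ± 2.12 CPM in CaMKK2 KO (n = 4 each, edgeR log2 fold change -1.03, SE 0.17, adjusted p = 0.0197).

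In classical monocyte-gated cells, 22 to 330 a mouse, Gatm and Arg2 again passed the test. Gatm was at 13.3, 30.6, 42.2 and 57.7 CPM in WT mice 1 to 4 and at 669, 578, 335 and 632 CPM in CaMKK2 KO mice 1 to 4. No WT mouse came near the lowest CaMKK2 KO mouse, and Gatm rose 14.3-fold (log2 fold change 3.84, SE 0.33, edgeR adjusted p = 0.000113). Arg2 was at 31.1, 28.0, 17.3 and 23.1 CPM in WT and at 47.6, 141, 73.8 and 84.5 CPM in CaMKK2 KO mice, again without overlap. Arg2 rose 3.82-fold (log2 fold change 1.93, SE 0.35, edgeR adjusted p = 0.0242), a call that was lost without WT mouse 2, 3 or 4 or CaMKK2 KO mouse 4, at adjusted p of 0.0793, 0.0931, 0.0564 and 0.0767.

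Of the 9 genes, all tested here, 2 were called and 4 did not overlap (Gatm, Arg2, Ass1 and Slc7a2, all higher in CaMKK2 KO). Among the 5882 genes tested in this class 1.77% were called, 1.05% as higher, and 9.33% did not overlap. The median log2 fold change of the 9 genes was 1.33, against -0.02 over all genes. Ass1 was at 8.90 to 263 CPM in WT and 279 to 797 CPM in CaMKK2 KO mice (log2 fold change 1.60, SE 0.54, edgeR adjusted p = 0.175), lowest once more in WT mouse 1. Slc7a2 was at 4.45 to 7.88 CPM and 9.10 to 23.4 CPM (log2 fold change 1.33, SE 0.38, edgeR adjusted p = 0.110). Arg1 overlapped widely, at 193 to 1383 CPM in WT and 115 to 729 CPM in CaMKK2 KO mice (log2 fold change -0.16, SE 0.63, edgeR adjusted p = 0.962), and the highest WT value came from the 22 cells of WT mouse 1. Acod1 did not pass the test either, at 8.90 to 167 CPM in WT and 48.1 to 368 CPM in CaMKK2 KO mice (edgeR adjusted p = 0.503). Nos2, at 4.09 to 22.2 CPM in WT and 11.8 to 82.4 CPM in CaMKK2 KO mice, overlapped (log2 fold change 2.29, SE 0.70, edgeR adjusted p = 0.136). Asl and Odc1 had log2 fold changes of -0.12 and 0.05 (edgeR adjusted p = 0.849 and 0.962). The 8 neutrophil markers summed to between 78.1 and 1957 CPM in WT and between 72.1 and 159 CPM in CaMKK2 KO mice. T cell markers summed to 4.45 to 26.0 CPM in WT and 33.1 to 44.2 CPM in CaMKK2 KO mice, and those of tumor, glia or neurons to 44.6 to 84.5 and 29.9 to 43.8 CPM, both without overlap. The part of these markers in the values was not tested.

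In microglia-gated cells, 33 to 200 a mouse, Gatm was at 215, 248, 378 and 315 CPM in WT and at 1446, 1125, 1180 and 1140 CPM in CaMKK2 KO mice. The genotypes were again far apart, and Gatm rose 4.28-fold (log2 fold change 2.10, SE 0.17, edgeR adjusted p = 5.4e-05). It was the only gene called of the 6 that passed the filter, since Arg2, Nos2 and Slc7a2 had fewer than 200 UMIs. From 69 UMIs, Arg2 was at 0 to 4.98 CPM in WT and 12.4 to 40.8 CPM in CaMKK2 KO mice, while Nos2 and Slc7a2 overlapped. Of the 5958 genes tested 1.53% were called, 0.587% as higher. Without overlap were 2 of the 6, Gatm and Ass1, against 10.9% of all genes. The median log2 fold change of the 6 genes was 1.26, against -0.12 over all genes. Ass1 was at 4.70, 26.6, 38.2 and 20.0 CPM in WT and at 82.2, 79.9, 48.5 and 121 CPM in CaMKK2 KO mice (log2 fold change 2.06, SE 0.48, edgeR adjusted p = 0.0562), and it passed the test in DESeq2 (adjusted p = 0.00213). Acod1 was at 9.54 to 21.6 CPM in WT and 9.31 to 117 CPM in CaMKK2 KO mice (log2 fold change 1.99, SE 0.60, edgeR adjusted p = 0.122), and Arg1 at 51.2 to 247 and 79.2 to 422 CPM (0.53, SE 0.59, edgeR adjusted p = 0.679). Odc1 and Asl had log2 fold changes of -0.40 and -0.16 (edgeR adjusted p = 0.342 and 0.723). B cell markers summed to 116 to 197 CPM in WT and 209 to 259 CPM in CaMKK2 KO microglia-gated cells, without overlap, and their part was not tested. Calls over all genes were split 35 higher to 56 lower, 37 to 27 with TMM scaling and 90 to 57 in DESeq2, and TMM moved the median of all genes by 0.12 on the log2 scale.

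**Figure D3:**
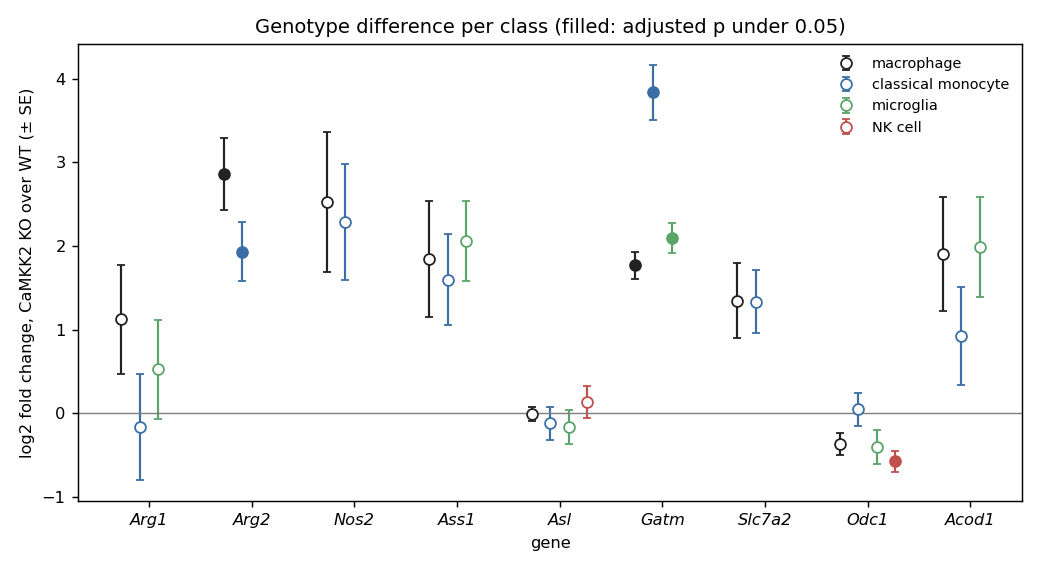
Log2 fold change, CaMKK2 KO over WT, of each gene tested (horizontal axis) in macrophage-, classical monocyte-, microglia- and NK cell-gated cells, with its standard error. Colors mark the class and filled points passed the edgeR test: Gatm in macrophages, classical monocytes and microglia, Arg2 in macrophages and classical monocytes, and Odc1, which is lower, in NK cells.

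NK cell-gated cells, 95 to 277 a mouse, carried enough UMIs of 2 of the genes. Odc1 was at 161, 173, 123 and 143 CPM in WT and at 90.5, 97.8, 117 and 93.6 CPM in CaMKK2 KO mice, so every WT mouse was above every CaMKK2 KO mouse. Odc1 fell to 0.673-fold (log2 fold change -0.57, SE 0.13, edgeR adjusted p = 0.0270), and Asl did not pass the test (log2 fold change 0.14, SE 0.20, edgeR adjusted p = 0.776). Of the 6535 genes tested in NK cells 2.95% were called, 2.0% as higher, and 11.2% did not overlap. In this gate B cell markers summed to 147 to 200 CPM in WT and 41.6 to 92.8 CPM in CaMKK2 KO mice, classical monocyte markers to 767 to 1037 and 1364 to 1538 CPM, and type 2 dendritic cell markers to 696 to 928 and 931 to 1011 CPM, all without overlap. The last panel includes Klrd1 and is not particular to dendritic cells. NK cell-gated cells had on average 1.01 of its 8 markers, and it summed to 936 CPM in CD8 T cells. The part of these markers in the Odc1 difference was not tested. The Odc1 call was lost without WT mouse 1, 2 or 4, at adjusted p of 0.0656, 0.0875 and 0.0646, and without CaMKK2 KO mouse 1, 2 or 4, at 0.0998, 0.0950 and 0.0740. Calls over all genes were split 131 higher to 62 lower, 86 to 71 with TMM scaling and 110 to 96 in DESeq2.

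No fit was made for smaller myeloid classes, and their Gatm levels are given as values. In type 2 dendritic cell-gated cells it was at 69.0 to 86.3 CPM in WT and 182 to 315 CPM in CaMKK2 KO mice. Non-classical monocytes had 0, 15.6, 13 and 17.5 CPM in WT and 97.6, 88.9, 82.9 and 191 CPM in CaMKK2 KO mice, where WT mouse 1 had 6 cells. Type 1 dendritic cells, the class with Gatm already at 188 to 311 CPM in WT, overlapped with their 264 to 371 CPM in CaMKK2 KO mice. Mature dendritic cells overlapped too, at 0 to 46.6 CPM in WT and 36.9 to 253 CPM in CaMKK2 KO mice. Their 46.6 CPM came from 3 cells of WT mouse 1 with 21466 UMIs in all, and the other WT mice were at 0 to 13.2 CPM. Plasmacytoid dendritic cells overlapped at 0 to 7.22 and 0 to 24.1 CPM. Neutrophils and mast cells or basophils held 2 and 1 UMIs of Gatm in all. NK cells were at 2.46 to 5.46 CPM in WT and 10.4 to 14.9 CPM in CaMKK2 KO mice, which was a mean of 1.18% of the macrophage level in WT and 1.14% in CaMKK2 KO. CD8 T cells did not overlap either, at 3.03 to 12.9 CPM in WT and 16.1 to 18.2 CPM in CaMKK2 KO mice. Relative to the macrophage level these were 2.13% in WT and 1.52% in CaMKK2 KO. Whether Gatm in NK, CD8 T or B cells is RNA free in the droplets was not tested. B cells, regulatory T cells and other CD4 T cells overlapped. In B cells the overlap came from the 14 cells of WT mouse 4, at 16.9 CPM. The other WT mice were at 0 to 5.70 CPM there and CaMKK2 KO mice at 14.7 to 18.5 CPM.

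**Figure D4:**
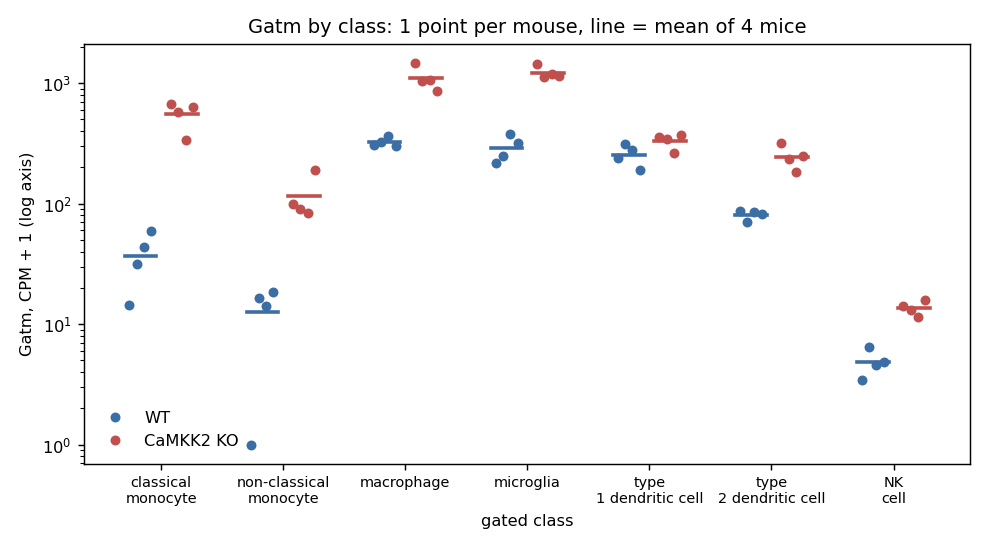
Gatm in 7 gated classes of each mouse, as CPM plus 1 on a log axis, with WT in blue, CaMKK2 KO in red and a line at the mean of the 4 mice. The genotypes are apart in monocytes, macrophages, microglia, type 2 dendritic cells and, at much lower levels, NK cells. Whether the NK cell level is RNA free in the droplets was not tested. They overlap in type 1 dendritic cells.

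Whether a genotype difference depended on the class was tested per mouse, on the log2 difference between macrophage- and classical monocyte-gated cells. For Gatm this class difference was 3.31 ± 0.85 in WT and 1.02 ± 0.51 in CaMKK2 KO mice (n = 4 each). The difference between the genotypes, -2.29, had the smallest p that 4 mice against 4 allow, 0.0286, in a two-sided exact permutation test, and an adjusted p of 0.129 over the 9 genes. Acod1 gave 1.00 with the same exact permutation p and adjusted p, but its sign changed under a looser gate. Arg1 gave 0.99 (exact permutation p = 0.171, adjusted p = 0.309) and Arg2 0.84 (exact permutation p = 0.0571, adjusted p = 0.171). No gene passed the threshold after adjustment. A few genes at the smallest p cannot pass over 9 genes, whatever their difference, so this test cannot show that the effect was equal in both classes. Between macrophage- and microglia-gated cells the smallest adjusted p was 0.643.

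The share of macrophages with a UMI was compared after every cell was thinned to 5000 UMIs, which left 1882 WT and 1708 CaMKK2 KO macrophage-gated cells and removed 44 and 33 shallower ones. Gatm was detected in 55.6 ± 6.04% of WT and 92.4 ± 2.68% of CaMKK2 KO macrophages (SD over 4 mice each), and Arg2 in 3.43 ± 0.99% and 21.9 ± 10.2%. The share with Ass1 was 28.6 ± 16.5% and 64.8 ± 19.7%, and that with Nos2 was 2.65 ± 1.25% and 12.4 ± 10.2%. For these 4 genes and Slc7a2, at 3.60 ± 0.82% and 9.01 ± 4.45%, the exact permutation p was 0.0286, the smallest possible, and the adjusted p was 0.0514. WT mouse 3 and CaMKK2 KO mouse 3 were both at 44.4% for Ass1. Acod1, at 11.1 ± 7.24% and 33.6 ± 17.2% (exact permutation p = 0.0571, adjusted p = 0.0857), and Arg1, at 24.5 ± 8.16% and 44.9 ± 16.7% (exact permutation p = 0.0857, adjusted p = 0.110), overlapped. Odc1 and Asl had exact permutation p of 0.200 and 0.571.

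Without thinning the shares of macrophages with a UMI were 73.4% and 97.1% for Gatm, 8.30% and 39.3% for Arg2, 32.1% and 53.9% for Arg1 and 4.07% and 19.9% for Nos2, WT before CaMKK2 KO. The unthinned shares with Ass1 and with Nos2 overlapped between the genotypes (exact permutation p = 0.0571 for each). In thinned NK cells, at a median depth of 7206 UMIs before thinning against 14593 in macrophages, the shares were 2.2% and 7.55% for Gatm, 2.62% and 3.65% for Arg1, 0% and 0.269% for Nos2 and 0% and 0.569% for Acod1. No thinned NK cell had a UMI of Arg2 or Slc7a2. WT macrophages thus had Nos2 and Arg2 in more cells than NK cells did.

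Arg1 and Nos2 were found in the same macrophages more often than independent detection would give. Over all mice 165 of the 3590 thinned macrophages had a UMI of both genes, against 119.4 expected from the shares within each mouse, a ratio of 1.38. In WT mice 1 to 4 there were 10, 11, 7 and 1 such cells among 17, 15, 10 and 6 cells with Nos2. In CaMKK2 KO mice 1 to 4 there were 15, 92, 20 and 9 among 18, 115, 29 and 41 cells with Nos2. Most cells with Nos2 thus also had Arg1 in 6 of the 8 mice, the exceptions being the mice numbered 4 of each genotype, which had the lowest Arg1.

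The log2 odds ratio of detecting both genes, with 0.5 added to each count, was 1.72, 2.60, 3.03 and 0.73 in WT mice 1 to 4 and 2.21, 1.36, 2.10 and -0.48 in CaMKK2 KO mice 1 to 4. It was above 0 in 7 of 8 mice, with a mean of 1.66 ± 1.12. CaMKK2 KO mouse 4 was the exception, with Arg1 in 22.0% of its cells with Nos2 and 28.8% of its cells without. The genotypes did not differ, at 2.02 ± 1.02 in WT and 1.30 ± 1.24 in CaMKK2 KO (difference -0.72, two-sided exact permutation p = 0.429, n = 4 each). In 1204 thinned classical monocyte-gated cells 49 had both genes, against 22.6 expected, and 33 of them came from CaMKK2 KO mouse 2. The mean log2 odds ratio there was 1.90 ± 1.39, above 0 in 8 of 8 mice. In WT mice 3 and 4 no monocyte held both genes, so the 0.5 added put them above 0. The odds ratios describe cells of 1 mouse, which share a library and differ in state, and they carry no p-value.

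**Figure D5:**
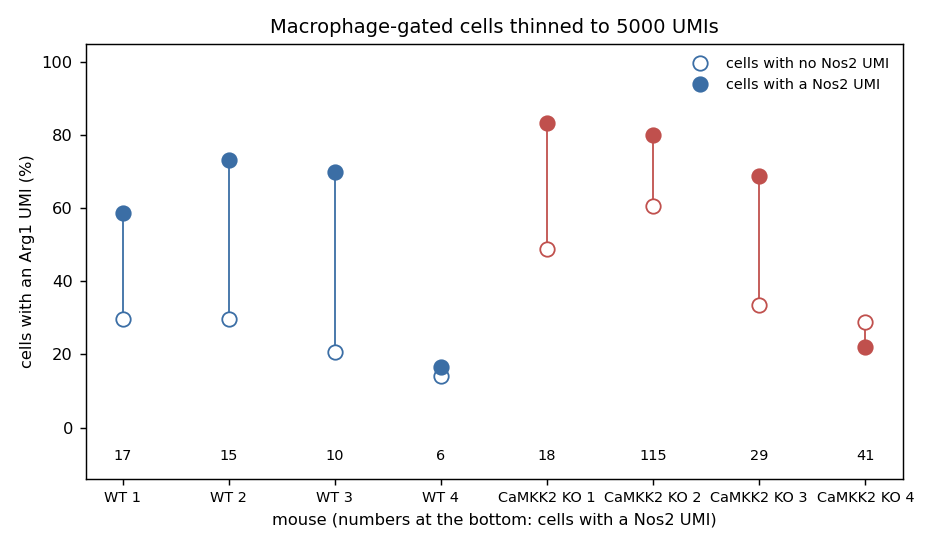
Detection of Arg1 and Nos2 in macrophage-gated cells thinned to 5000 UMIs, per mouse, with WT mice in blue and CaMKK2 KO mice in red: the percent of cells with an Arg1 UMI among cells with (filled) and without (open) a Nos2 UMI, and below them the number of cells with Nos2. The filled point is above the open point in every mouse except CaMKK2 KO mouse 4.

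Among the 36 pairs of the 9 genes, 8 had an odds ratio above 1 in each of the 8 mice, 2 had one below 1 in each, and 26 had both signs. Acod1 and Nos2 each took part in 4 of the 8. The amount added to each count can lift the ratio above 1 in a mouse where no cell held both genes. That was so in a WT mouse for Arg2 with Nos2 and in a WT mouse for Nos2 with Slc7a2. Ass1 with Acod1 had a mean log2 odds ratio of 1.80 ± 0.54 and Nos2 with Acod1 one of 1.69 ± 0.65. Nos2 with Slc7a2, synthase and arginine transporter, had 2.19 ± 1.23, Nos2 with Ass1 had 1.27 ± 0.95, and Arg2 with Acod1 had 1.82 ± 1.19. Arg2 with Nos2, at 1.33 ± 1.02, Arg1 with Slc7a2, at 1.44 ± 0.62, and Odc1 with Acod1, at 0.29 ± 0.16, completed the 8. Gatm stood against Arg2, at -1.17 ± 0.45, and against Acod1, at -0.99 ± 0.46, in 8 of 8 mice. Gatm and Arg2, the genes that were both higher in CaMKK2 KO macrophages, were thus detected in the same cells less often than independent detection gives within every mouse. In classical monocyte-gated cells the pairs had both signs, Gatm with Arg2 at 0.30 ± 1.00 and Gatm with Acod1 at 0.69 ± 1.62, each above 0 in 5 of 8 mice.

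Levels of the remaining 7 genes were then set side by side in macrophages split by detection of Arg1 and Nos2 after thinning to 5000 UMIs. The levels used all UMIs of the cells, with at least 5 cells a mouse in each group. Slc7a2 was at 21.8 ± 11.1 CPM in cells with Arg1 only and at 8.31 ± 5.04 CPM in cells with neither gene, higher in 8 of 8 mice (1.29 on the log2 scale, exact sign-flip permutation p = 0.0078, adjusted p = 0.0547 over 7 genes). Cells with both genes had Slc7a2 at 51.2 ± 32.8 CPM, above cells with neither in 7 of 7 mice (exact permutation p = 0.0156, adjusted p = 0.0729). Against cells with Arg1 only, cells with both had more Ass1 in 7 of 7 mice, 369 ± 232 against 247 ± 185 CPM, and less Gatm in 7 of 7, 597 ± 397 against 846 ± 554 CPM (exact permutation p = 0.0156, adjusted p = 0.0547 for each). No gene passed the threshold after adjustment, which a lone gene at the smallest p cannot do over 7 genes. A cell without a UMI of a gene after thinning may still express it.

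Other genes of these pathways were counted in macrophage-gated cells by lists chosen for their function. Of 96 genes in 8 lists, 73 passed the filter, and of these 1 was called lower, none higher and 72 were not called. Without overlap were 9 of the 73, against 13.1% of all genes tested, of which 2.33% were called. Sat1, which acetylates polyamines for export and breakdown, was at 707, 804, 903 and 865 CPM in WT and at 564, 555, 608 and 599 CPM in CaMKK2 KO mice. It fell from 820 ± 85.7 to 581 ± 25.6 CPM, with no overlap (log2 fold change -0.50, SE 0.10, edgeR adjusted p = 0.0397). Of the 14 polyamine genes tested the other 13 were not called, with Atp13a3, a polyamine transporter, at -0.33 (adjusted p = 0.100) and Paox, polyamine oxidase, at -0.49 (adjusted p = 0.221) on the log2 scale in edgeR.

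The 4 tested genes of arginine transport and the urea cycle were not called, and for the constitutive transporter Slc7a1 the mean was 11.6 ± 1.5 CPM over WT and 9.04 ± 2.14 CPM over CaMKK2 KO mice. Cps1 and Otc, which open the hepatic urea cycle, did not reach the filter. None of the 5 genes tested on the way from ornithine to proline and glutamate was called, and their median log2 fold change was -0.10. Neither were the 3 tested creatine genes, where Gamt, which completes creatine synthesis after Gatm, was at 14.8 ± 1.36 and 14.1 ± 2.15 CPM, and the creatine transporter Slc6a8 at 6.81 ± 2.39 and 3.53 ± 2.05 CPM (log2 fold change -0.90, SE 0.39, edgeR adjusted p = 0.232). Among 7 tested genes of nitric oxide and its cofactor, none was called, with sepiapterin reductase, Spr, at 37.7 ± 2.03 and 30.2 ± 3.63 CPM (edgeR adjusted p = 0.140).

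All 20 genes around itaconate in the citrate cycle were tested and none was called, with a median of -0.03. The largest of the named differences were in Idh2, the mitochondrial isocitrate dehydrogenase, at 66.8 ± 3.65 and 43.9 ± 13 CPM (edgeR adjusted p = 0.128), and Idh1, at 39.0 ± 6.19 and 27.7 ± 3.98 CPM (edgeR adjusted p = 0.113). Of the 12 transcription factors known to act on Arg1, Nos2 or Acod1, none was called. The interferon-induced chemokine Cxcl9 was lowest in WT mouse 1 and highest in CaMKK2 KO mice 4 and 2, as were Ass1 and Acod1, at 15.0 to 583 CPM in WT and 919 to 3043 CPM in CaMKK2 KO (log2 fold change 2.52, SE 0.83, edgeR adjusted p = 0.140). None of the 8 tested activation markers was called, and Retnla, Cd163, Il6 and Il12b did not reach the filter. Chil3, an activation marker that is also a monocyte marker of the gates, was at 1170 ± 554 and 509 ± 55.8 CPM (log2 fold change -1.20, SE 0.29, edgeR adjusted p = 0.0676). The list medians ran from -0.46 for creatine to 0.04 for the factors, against -0.08 over all genes tested.

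The genes most like Arg1, Nos2 and Acod1 in their pattern over classes were sought among 11186 genes, as Pearson's r of the mean log2(CPM + 1) over the 12 classes, which share the libraries of the 8 mice. For Arg1 they were Bach2os at 0.977, Adgb at 0.971 and Siglec1, a macrophage sialic acid receptor, at 0.969, and Nos2 was ninth at 0.959. For Nos2 they were Inhba, an activin subunit, at 0.982, Cenpb at 0.976 and Arg1 at 0.959. For Acod1 they were Clec4a1 at 0.968, the complement component C3 at 0.966 and the formyl peptide receptor Fpr1 at 0.963.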

How the data were processed

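Gene expression and hashtag libraries of 8 mice were made with 10x 3′ chemistry. Per the labels and the methods of the study, the authors converted reads with bcl2fastq 2.20, aligned them to mm10 and deposited UMI counts per gene and barcode from Cell Ranger 4.0.0 with STAR 2.7.5c. UMI counts are not scaled for depth, and 3′ counting does not separate isoforms.

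From these counts, hashtags were called with HTODemux of Seurat 5.3.0 (quantile 0.99), which left 667 WT and 508 CaMKK2 KO barcodes as hashtag doublets and 48 and 67 as negative. Of the remainder, 222 WT and 169 CaMKK2 KO cells were removed by Scrublet score (scanpy 1.11.5), and 744 and 922 lay over 3 median absolute deviations from the median. Barcodes had at least 200 genes. Classes were gated per cell on markers. A cell that passed several gates of monocytes, macrophages or microglia was kept. It went to the first it passed, in the order microglia, macrophage, non-classical monocyte, classical monocyte. The numbers of markers needed (7 of 10 for macrophages and microglia, 5 of 8 for classical monocytes, 3 of 8 for NK cells) were set after the data were seen, and 244 cells passing gates of unrelated lineages and 520 passing none were left out.

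Counts were summed per class and mouse and fitted with edgeR 4.0.16 (glmQLFit, glmQLFTest; library size the class total, genes with at least 200 UMIs, Benjamini-Hochberg adjustment, threshold 0.05, R 4.3.3). The study tested cells with MAST; mice were used here as replicates. DESeq2 1.42.0, limma 3.58.1, TMM scaling, other filters, gates and depths, and each mouse left out were tried as alternatives. Exact permutation and sign-flip tests were two-sided (scipy 1.17.1). Class differences used log2(CPM + 1). Intervals and limits cover counting error only. Scripts were tested on simulated data. All 9 genes are named in each class where they were fitted; of each list up to 4 genes with the smallest p, and for Arg1, Nos2 and Acod1 the 3 genes with the most similar pattern. Members and lists were chosen with earlier results of these data known. Values of some list genes are not reported here.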

Additional observations from a re-analysis of the deposited data

Results flagged for a closer look

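In groups of 4 mice, 7 values of the 134 groups examined lay apart from the other 3 mice by Dixon's gap criterion, and chance sets apart about 1 group in 20. CaMKK2 KO mouse 2 held 3 of them. Its Arg1 in microglia-gated cells was 421.6 CPM against 79.2 to 102.3 CPM in the other CaMKK2 KO mice. Its Slc7a2 in macrophage-gated cells was 48.7 CPM against 12.6 to 16.6 CPM, and 15.6% of its thinned macrophages had a UMI of Slc7a2, against 6.34% to 7.56%. WT mouse 1 had Arg1 at 246.6 CPM in microglia-gated cells, against 51.2 to 81.3 CPM in the other WT mice. WT mouse 3 had Acod1 at 21.6 CPM in microglia-gated cells, against 9.54 to 10.0 CPM. Spr, sepiapterin reductase, was at 34.6 CPM in macrophage-gated cells of WT mouse 2, below the 38.6 to 38.7 CPM of the other WT mice, and at 24.8 CPM in CaMKK2 KO mouse 4, below 31.4 to 32.3 CPM.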

How the results depend on the processing

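Of 613 alternative values of 47 results, 547 were scored as the same. For most results this meant the same direction and side of the threshold, so that a result not called stayed not called. For counts it meant a count close to the main one, and for the mean odds ratio a value within its SD. Gatm was called in macrophage-gated cells under each alternative run, and Arg2 under each except when the B cell level was subtracted and limma used (adjusted p = 0.25). Genes called in macrophages numbered 221, and 92 to 291 with 1 mouse left out. Over the other alternatives they numbered 150 to 579, with 579 in DESeq2 and 385 with no filter. Of the 9 genes, 2 were called in macrophages, and 3 in DESeq2, where Slc7a2 passed too. After the B cell subtraction in limma 1 was called, a choice made after the data were seen for these counts. In classical monocytes 2 were called, 5 with no filter and 1 to 2 with 1 mouse left out. In microglia 1 was called, 2 in DESeq2, 3 with at least 50 UMIs, 5 with no filter and 1 to 2 with 1 mouse left out. In NK cells 1 was called, 2 with at least 50 UMIs or no filter, and 0 to 1 with 1 mouse left out. The cause of these shifts was not tested, and with no filter other genes enter both the fit and the adjustment.

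Values near 0 changed sign. Asl in macrophages moved from -0.00 to 0.078 with TMM, 0.072 in DESeq2, 0.0040 with outlying cells kept, 0.032 on mean CPM of cells and 0.30 after the B cell subtraction, and ranged from -0.027 to 0.052 with 1 mouse left out. With 1 mouse left out, Arg1 ranged from -0.46 to 0.72 in classical monocytes and from -0.44 to 1.36 in microglia, Odc1 from -0.10 to 0.12 in classical monocytes and Asl from -0.27 to 0.00061 in microglia. Of the class differences in genotype effect, Ass1 ranged from -0.33 to 0.14 and Slc7a2 from -0.45 to 0.028 with 1 mouse left out, while a stricter gate gave Slc7a2 0.11 and a looser gate gave Asl -0.041 and Acod1 -0.22.

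Edge cases limit these values: WT mouse 1 had 22 classical monocytes, Arg2 and Nos2 in microglia had fewer than 200 UMIs and were fitted under looser filters only, and other CD4 T cells had too few cells for the Odc1 comparison under a stricter gate. No paired analysis was possible because hashtag numbers do not tie a WT mouse to a CaMKK2 KO mouse. Nothing in the labels names separate litters or days.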
